A study of Rattus norvegicus with 3 samples.

Results

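Zfp638, Sorl1, Scrn3, Crip1 and Slc4a1ap are 5 of the 10411 genes that the arrays measure, and they were chosen by their measured signal, which was about 2-fold higher in rat heart muscle cells given PAMH than in cells given phenylephrine. That ratio is therefore a description of how they were picked and not a finding. What it leaves unsaid is where each gene stood relative to unstimulated cells: whether its signal was higher with PAMH, lower with phenylephrine, or both. The cells were neonatal rat ventricular myocytes, a primary culture that beats and grows in response to hormones, and total RNA was taken after 48 h of culture. The PAMH group received 1 µM PAMH, the phenylephrine group 20 µM phenylephrine, and the unstimulated group neither. The labels used here do not state the number of animals, any pooling or the vehicle. Each condition had 1 array, so there were no replicates, no standard errors and no p-values, and having so few arrays limits how precise any ratio below can be. The doses of the compounds also differed, so the PAMH and phenylephrine values stand side by side and not at a matched dose.

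Phenylephrine activates α1-adrenergic receptors, which signal through Gq proteins and make cultured cardiac myocytes enlarge. PAMH is known here only by the submitters' name for it, and their keywords include 5-hydroxytryptamine and pyridine. The 5 genes are not known to share a pathway. Zfp638 encodes a nuclear zinc finger protein related to matrin 3 that binds nucleic acid, takes part in adipocyte differentiation in mouse and in silencing of retroviral DNA in human cells. Sorl1 encodes SORLA, a receptor of the VPS10P family that sorts cargo such as the amyloid precursor protein between the Golgi and endosomes. Scrn3 encodes a secernin, a family named for a relative that regulates exocytosis in mast cells. Crip1 encodes a small cysteine-rich LIM-domain protein first described in intestine. Slc4a1ap encodes kanadaptin, a protein with a forkhead-associated domain that was named as a partner of the anion exchanger Slc4a1.

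Values below are linear signal intensities, multiplied by 1 factor per array (1.04 for PAMH, 1.02 for phenylephrine and 0.937 for unstimulated) so that the medians of all non-control probe sets were equal. The deposited medians were 106, 108 and 118 in the same order of arrays, so the scaling removed a shift of -0.15 for PAMH and -0.13 for phenylephrine on the log2 scale against the unstimulated array. The deposited means after trimming 2% at each end were already equal, at 250.1, so the deposited intensities are not unscaled values. A signal was taken as measured at or above 76.0, percentile 40 of all scaled values. Across all genes measured on both arrays of a pair, 13 (0.197%) lay above and 24 (0.364%) below the 2-fold line for PAMH over phenylephrine. For PAMH over unstimulated 134 (2.05%) lay above and 52 (0.794%) below, or 75 and 92 on the deposited intensities. For phenylephrine over unstimulated 172 (2.62%) lay above and 50 (0.761%) below, or 132 and 92. All ratios are relative to that scaling. The actin 3′ to 5′ probe set ratio, a sign of RNA integrity, was 1.54 for PAMH, 1.44 for phenylephrine and 1.72 for unstimulated, and that of Gapdh lay between 1.01 and 1.07. The part of RNA quality in any result was not tested.

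The ratio that chose the genes is given first for its size only, because the choice fixed its outcome. Of the 5 genes, 4 were at least 2-fold higher with PAMH than with phenylephrine, where 0.197% of 6593 genes were, and Crip1 was 1.99-fold higher. Against unstimulated cells the same genes fell into different kinds. A gene is called raised or lowered here where its signal was at least 1.5-fold above or below that of unstimulated cells, a line of size with no test behind it. Phenylephrine lowered 4 of the 5, Zfp638, Sorl1, Scrn3 and Slc4a1ap, where 4.54% of 6571 genes were as low. PAMH raised 2 of the 5, Crip1 and Zfp638, where 9.31% of 6549 genes were as high, and lowered 1, Slc4a1ap, where 4.17% were as low. A low signal on the phenylephrine array enters both the ratio that chose the genes and the ratio of phenylephrine to unstimulated. A high signal on the PAMH array likewise enters the ratio of PAMH to unstimulated. Nothing is therefore read from how many of the 5 lay below or above the unstimulated level. Their ranks in these ratios, given below, are descriptions as well.

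**Figure D1:**
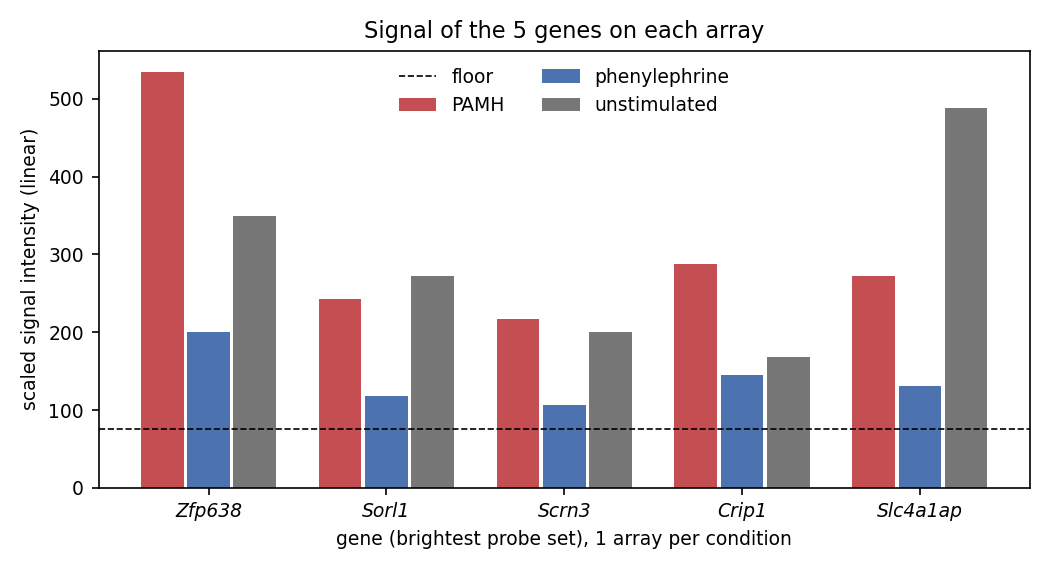
Scaled signal intensity (linear axis) of the 5 genes, 1 bar for each array, with PAMH in red, phenylephrine in blue and unstimulated in grey, and the floor of 76.0 as a dashed line. The phenylephrine bar is the lowest of the 3 for every gene, while the PAMH bar is the highest for Zfp638, Crip1 and Scrn3 and lies below the unstimulated bar for Sorl1 and Slc4a1ap.

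Zfp638 differed from unstimulated cells in opposite directions with the 2 compounds. By its only probe set, its signal was 535 with PAMH, 201 with phenylephrine and 349 in unstimulated cells. PAMH was 1.53-fold above and phenylephrine 1.74-fold below the unstimulated level, which together made the PAMH signal 2.66-fold that of phenylephrine. On the log2 scale 43.6% of that distance lay on the PAMH side and 56.4% on the phenylephrine side. No other gene among the 6593 measured on both treated arrays had a higher ratio of PAMH to phenylephrine. This is the ratio that chose the gene, so its rank is a description and not a finding. Among the 6400 genes measured on all 3 arrays, Zfp638 (0.0156% of them) was the only one that PAMH raised and phenylephrine lowered. That no other gene was so placed followed from the ratio that chose Zfp638, which did not fix the call for Zfp638 itself. The gene with the next highest ratio of PAMH to phenylephrine, Mxi1 at 2.22-fold, was already too low to pass 1.5-fold on both sides. The reverse was seen for 2 genes (0.0312%), Eno3 and Serpinf1, which were named after their values were seen.

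The PAMH side of Zfp638 was close to the 1.5-fold line, and the call depended on the scaling. Its log2 ratio of PAMH to unstimulated was 0.62, and 5 alternatives took it under that line. They were the deposited intensities without the median scaling (0.46), percentile 75 in place of the median (0.55) and quantile normalization (0.51). The others were cyclic loess (0.53) and an offset of 50 added to each signal (0.55). The difference was above 0 under all 9 alternatives, and the 4 that left the call in place change nothing for a gene with 1 probe set. In rank, 549 genes were further above unstimulated with PAMH than Zfp638, and 132 were further below it with phenylephrine. The phenylephrine signal lay between 1.59-fold and 1.90-fold below unstimulated over the settings.

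Sorl1 was lower with phenylephrine and near its unstimulated level with PAMH. The signal was 243 with PAMH, 118 with phenylephrine and 273 in unstimulated cells. Phenylephrine was thus 2.31-fold below unstimulated, and 22 of 6571 genes were further below. PAMH was 1.12-fold below unstimulated, a log2 ratio of -0.17 that is smaller than the SD of 0.29 between probe sets of the same gene for that pair of arrays. The distance between PAMH and phenylephrine, 2.06-fold, thus lay on the phenylephrine side of an unstimulated signal that was itself read on a single array.

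The Sorl1 values rest on 1 of 6 probe sets. The other 5 lay below the floor on every array, with signals between 1.02 and 72.9, so their ratios were not taken as measured. Their log2 ratios of PAMH to phenylephrine were 0.63, 0.03, -3.03, -0.23 and -2.14, against 1.04 for the measured probe set. On all 5, both treated signals were below the unstimulated one. In the platform annotation 3 of the 6 share the same source sequence, yet their unstimulated signals ran between 5.43 and 273. None of the other probe sets could therefore be used to check the one that was measured. A further point is that the names of 2 of the dim probe sets end in x_at, which in the maker's naming marks probes that may bind other transcripts.

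**Figure D2:**
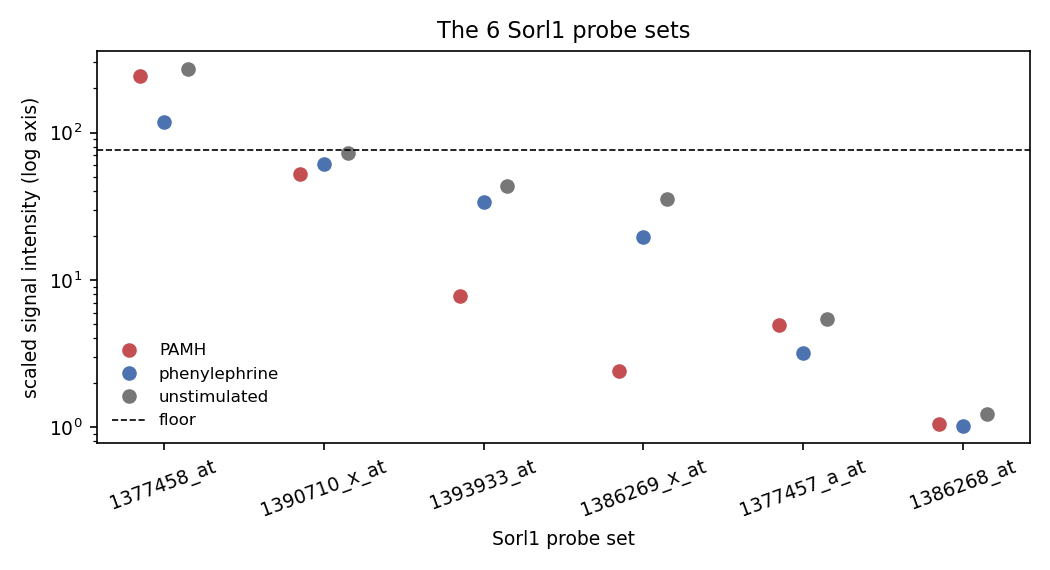
Scaled signal intensity (log axis) of the 6 Sorl1 probe sets on the PAMH, phenylephrine and unstimulated arrays, 1 point per array, with the floor of 76.0 as a dashed line. Only the brightest probe set lies above the floor, and on it the phenylephrine point (118) is apart from the PAMH (243) and unstimulated (273) points.

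Scrn3, like Sorl1, was lower with phenylephrine and near its unstimulated level with PAMH. Its signal was 217 with PAMH, 106 with phenylephrine and 200.5 in unstimulated cells, so the PAMH and unstimulated values were close and the phenylephrine value stood well below either. Phenylephrine was 1.89-fold below unstimulated, and 76 of 6571 genes were further below. PAMH was 1.08-fold above unstimulated, a log2 ratio of 0.12 that turned to -0.04 without the median scaling and had no settled direction. Of the log2 distance between PAMH and phenylephrine, 88.8% lay on the phenylephrine side. The phenylephrine signal was 106 against a floor of 76.0, and with an offset of 50 the ratio of PAMH to phenylephrine was 1.71-fold in place of 2.04-fold.

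Crip1 was the 1 gene of the group that PAMH raised without phenylephrine lowering it past 1.5-fold. The signal was 288 with PAMH, 145 with phenylephrine and 169 in unstimulated cells. PAMH was 1.71-fold above unstimulated and phenylephrine 1.16-fold below it, so here it was the phenylephrine value that lay close to the unstimulated one. The log2 ratio of phenylephrine to unstimulated was -0.22, within the SD of 0.27 between probe sets of the same gene. Of the log2 distance between the 2 compounds, 78.0% lay on the PAMH side. With PAMH 296 of 6549 genes were further above unstimulated than Crip1, and Crip1 stayed at least 1.53-fold above in every setting tried.

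Slc4a1ap was lower than unstimulated with both compounds, and further with phenylephrine. Its signal was 273 with PAMH, 130.5 with phenylephrine and 488 in unstimulated cells, so neither treated value came near the unstimulated one. Phenylephrine was 3.74-fold below unstimulated, and 3 of 6571 genes were further below. PAMH was 1.79-fold below unstimulated, and 97 of 6549 genes were further below. Both ratios share the same unstimulated signal, read on a single array, so they are not separate observations. Slc4a1ap was thus higher with PAMH than with phenylephrine (2.09-fold) although PAMH did not raise it. With the offset of 50 phenylephrine was 2.98-fold below unstimulated, and PAMH stayed at least 1.67-fold below in every setting.

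**Figure D3:**
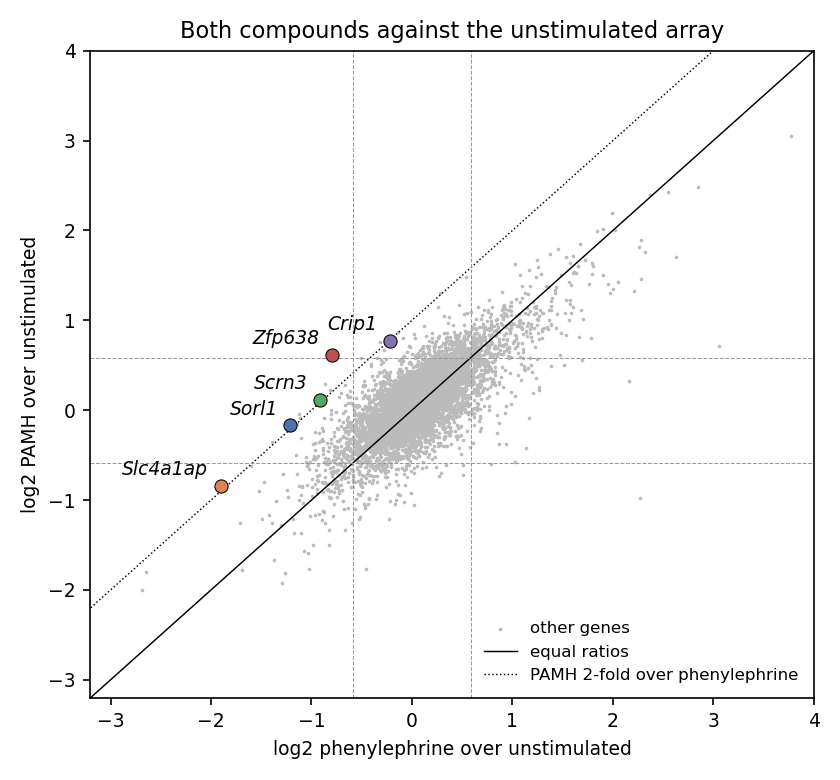
Log2 ratio of PAMH to unstimulated (vertical) against log2 ratio of phenylephrine to unstimulated (horizontal) for the 6400 genes measured on all 3 arrays, which share the unstimulated array, with the 5 genes in colour and other genes in grey. The solid line marks equal ratios, the dotted line PAMH at 2-fold over phenylephrine and the dashed lines 1.5-fold. The 5 genes lie along the dotted line, with Zfp638 above it, and spread between Slc4a1ap (-1.90 on the horizontal axis and -0.84 on the vertical) and Crip1 (-0.22 and 0.77).

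The 5 genes thus differed among themselves more than their common ratio shows. Likeness was measured as the Euclidean distance between log2 signals over the 3 arrays, each gene centred on its own mean. Sorl1 and Scrn3 were the closest pair, at a distance of 0.24, and Crip1 and Slc4a1ap the farthest apart, at 1.35. With 3 arrays this distance describes these signals and gives no evidence of shared control. Among 6395 other genes, those most like Sorl1 were Wdr33 (0.05) and Klf15 (0.07), and those most like Scrn3 were Qprt (0.09) and Mxi1 (0.13). Git1 (0.02) and Pnisr (0.07) were most like Crip1. The nearest genes to Zfp638 were Mxi1 and Hopx, both at 0.25, and the nearest to Slc4a1ap were G0s2 (0.22) and S100a13 (0.34).

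Promoter sequences were read for all 5 genes from RefSeq on the rat build GRCr8, as 250 bases before to 50 after each annotated start, with 2 starts for Crip1. The array files name no build. Those of Sorl1 and Scrn3 are shown because these genes were the closest pair by signal, and the downstream start of Crip1 because it is the gene whose difference lay on the PAMH side. Capitals mark every match to 7 motifs searched on both strands.

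Sorl1, chr8:51401198-51401497, minus strand: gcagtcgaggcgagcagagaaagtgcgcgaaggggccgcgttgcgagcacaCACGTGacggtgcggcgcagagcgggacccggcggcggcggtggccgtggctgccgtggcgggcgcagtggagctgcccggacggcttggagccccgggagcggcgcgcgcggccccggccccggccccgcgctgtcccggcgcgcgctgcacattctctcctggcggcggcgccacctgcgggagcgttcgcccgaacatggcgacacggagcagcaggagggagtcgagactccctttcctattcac

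Scrn3, chr3:78596148-78596447, plus strand: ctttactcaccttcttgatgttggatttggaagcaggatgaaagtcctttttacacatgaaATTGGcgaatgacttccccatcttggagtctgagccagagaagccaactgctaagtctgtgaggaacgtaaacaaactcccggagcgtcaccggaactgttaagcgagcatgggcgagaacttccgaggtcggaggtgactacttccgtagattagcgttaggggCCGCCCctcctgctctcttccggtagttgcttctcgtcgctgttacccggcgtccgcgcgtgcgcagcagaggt

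Crip1, chr6:138053618-138053917, plus strand: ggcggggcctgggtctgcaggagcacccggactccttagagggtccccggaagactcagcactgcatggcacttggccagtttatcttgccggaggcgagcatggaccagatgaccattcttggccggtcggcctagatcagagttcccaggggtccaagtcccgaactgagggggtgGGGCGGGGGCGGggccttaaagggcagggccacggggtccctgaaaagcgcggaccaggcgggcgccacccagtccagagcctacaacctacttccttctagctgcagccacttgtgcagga

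In Sorl1 the capitals are an E-box (CACGTG), which 6.42% of the 33469 promoters of the same length hold. In Scrn3 they are a CCAAT box on the reverse strand (37.5% of promoters) and a GC box (GGGCGG) on the reverse strand (33.1%), and in Crip1 a pair of GC boxes next to each other, which do not overlap. The promoters of Zfp638 and Slc4a1ap and the upstream start of Crip1 held no match to these. None of the 6 promoters held the M-CAT element of TEAD factors (CATTCC, 14.2% of promoters), the AP-1 site (TGANTCA, 7.33%), the cyclic AMP response element (TGACGTCA, 1.83%) or the TATA box (TATAAA, 14.2%). A match is a description of letters in this window. Sorl1 and Scrn3 shared none of the 7 motifs.

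Of the 13 genes at least 2-fold higher with PAMH than with phenylephrine, 9 were not members of the group, and the same question was asked of them. For 5 of these 9, named after their values were seen, phenylephrine was at least 1.5-fold below unstimulated and PAMH was within 1.5-fold of it: Mxi1, an antagonist of Myc, the T-type calcium channel gene Cacna1g, Snn, Qprt of NAD synthesis and the transcription factor gene Klf15. For the other 4, PAMH was at least 1.5-fold above unstimulated and phenylephrine within 1.5-fold of it: the small GTPase genes Mras and Rrad, Mapt, which encodes tau, and Hopx, a homeodomain protein of heart, whose log2 ratio of 0.59 was at the line. None of the 9 was lower than unstimulated with PAMH by 1.5-fold, as Slc4a1ap was. The phenylephrine signals of Snn (86.7), Qprt (87.1), Mapt (93.3), Klf15 (95.5) and Mxi1 (97.0) were near the floor of 76.0. Those of Mras and Cacna1g were 115 and 116, and those of Hopx and Rrad 352 and 446. With the floor at percentile 60 the count of 13 became 3, and with the offset of 50 it became 2. Just above the 2-fold line among non-members lay Klf15 (2.04-fold) and Mapt (2.01-fold), and just below it Wdr33 (161 with PAMH and 80.4 with phenylephrine) and G0s2 (1.98-fold). Crip1, at 1.99-fold, lay between Wdr33 and G0s2. Like Slc4a1ap, G0s2 was at least 1.5-fold lower than unstimulated with both compounds. Its log2 ratios to unstimulated were -0.62 with PAMH and -1.60 with phenylephrine.

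**Figure D4:**
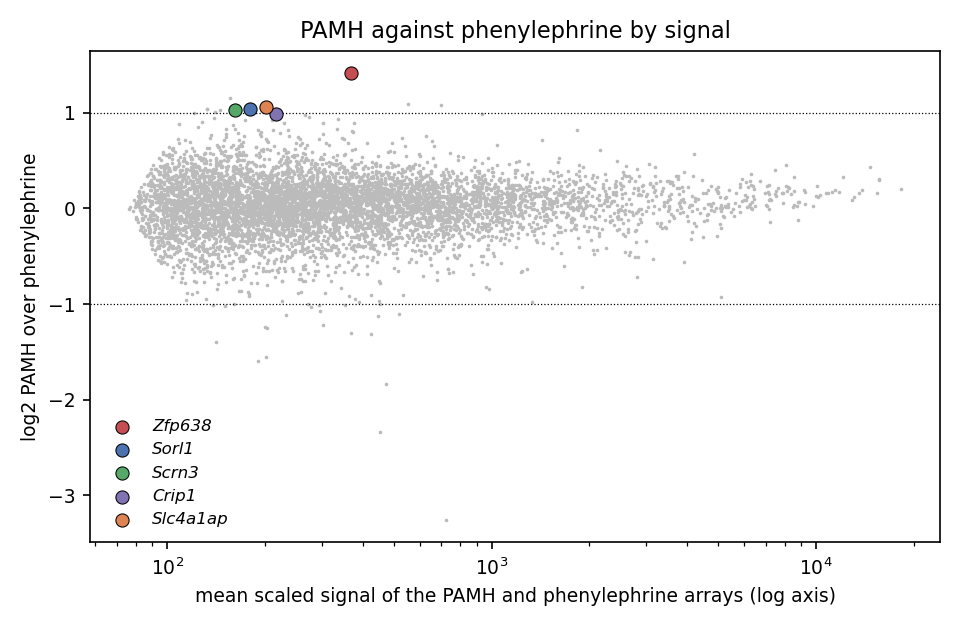
Log2 ratio of PAMH to phenylephrine against the mean scaled signal of those 2 arrays (log axis) for the genes measured on all 3 arrays, with the 5 genes in colour, other genes in grey and 2-fold marked by dotted lines. Zfp638 (1.41) lies above all other points, and Sorl1, Scrn3, Crip1 and Slc4a1ap lie between 0.99 and 1.06 at signals where most genes scatter closer to 0. The 5 genes were chosen by this ratio, so their height here is a description and not a finding.

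Relatives and partners of the 5 genes were looked at in lists by family or role, which were chosen with earlier results of these data known and are described by counts, with 1.5-fold as the line and the members themselves left out. Of all genes, 1.93% were past it upward and 2.67% downward for PAMH over phenylephrine, and 8.9% upward for phenylephrine over unstimulated. With so few genes past the line in all, a list of this size with none past it is near the background, and nothing about a list is read from that. The median log2 ratio of PAMH to phenylephrine over all genes was 0.04, that of PAMH to unstimulated 0.10 and that of phenylephrine to unstimulated 0.07.

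Among the sorting receptors of the VPS10P family, Sort1, which encodes sortilin, had a signal of 463 with PAMH, 446 with phenylephrine and 548 in unstimulated cells. Sorcs2 had 121, 146 and 189 in the same order, which put PAMH 1.57-fold below unstimulated, and Sorcs3 was below the floor on all arrays. For Sort1, as for Sorl1, the phenylephrine signal was the lowest of the 3, but it was 1.04-fold below that of PAMH where that of Sorl1 was 2.06-fold below. Of 18 genes on the array for retromer and other SORLA sorting partners or cargo, 16 were measured, and none differed by 1.5-fold between the compounds. Their median log2 ratio of PAMH to phenylephrine was 0.05. The retromer core gene Vps35 had 866 with PAMH, 872 with phenylephrine and 815 in unstimulated cells. App, the precursor of amyloid peptides and a cargo of SORLA, had 2216, 1921 and 1961. Lrpap1, which encodes a chaperone of lipoprotein receptors, was lower than unstimulated with both compounds, with 102, 86.9 and 173, the first 2 values being near the floor.

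Among the LIM proteins related to Crip1, the other 4 genes measured differed from it. Crip2, its relative and chromosomal neighbour, had 5711 with PAMH, 5502 with phenylephrine and 4631 in unstimulated cells. Csrp3, the muscle LIM protein of the Z-disc, was 3.29-fold above unstimulated with PAMH and 3.04-fold with phenylephrine. Csrp1 was 2.21-fold above with PAMH and 3.05-fold with phenylephrine, and Csrp2 1.73-fold and 1.92-fold. Where these 3 were higher with either compound, Crip1 was higher only on the PAMH array, and no test of that difference could be had.

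Scrn1, the other secernin gene measured, had 141 with PAMH, 183 with phenylephrine and 158 in unstimulated cells, and its phenylephrine signal was the highest of the 3 where that of Scrn3 was the lowest. For Zfp638, 7 genes of related proteins, silencing complexes and adipogenic partners were measured on both treated arrays, and none differed by 1.5-fold between them. Matr3, which encodes the related matrin 3, had 714 with PAMH, 562 with phenylephrine and 763 in unstimulated cells. Mphosph8 of the silencing complex HUSH had 602, 644 and 493. Of the genes that drive adipocyte differentiation, Cebpa, Cebpd and Pparg were below the floor on all arrays. Cebpb was below it with PAMH (31.3) and above it with phenylephrine (103) and in unstimulated cells (105), so its PAMH signal was the lowest of the 3 where that of Zfp638 was the highest.

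Slc4a1, the anion exchanger for which Slc4a1ap is named, had 184 with PAMH, 155 with phenylephrine and 132 in unstimulated cells, and did not share the low treated values of Slc4a1ap. Of 5 SLC4 transporter genes measured, Slc4a4, a sodium bicarbonate cotransporter, was 1.66-fold higher with PAMH than with phenylephrine, with 321 and 193 against 246 in unstimulated cells. Slc4a3, the anion exchanger of heart, was 1.70-fold above unstimulated with PAMH and 1.72-fold with phenylephrine. Of 11 other genes with a forkhead-associated domain that were measured, none differed by 1.5-fold between the compounds. Slmap, which encodes a membrane-associated protein of cardiac muscle, was the 1 that was past 1.5-fold against unstimulated, higher by a log2 ratio of 1.08 with PAMH and 1.13 with phenylephrine.

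Markers of cell types, those of myocytes among them, moved between the arrays as well. All 11 myocyte markers on the array were above the floor, and their summed signal was 106701 with PAMH, 88201 with phenylephrine and 75209 in unstimulated cells. The 11 fibroblast markers summed to 5734, 7394 and 9617 in the same order. Of the 8 fibroblast markers measured on both treated arrays, 2, Postn and Col3a1, were at least 1.5-fold lower with PAMH than with phenylephrine. None was as much higher, where 2.67% of all genes were lower and 1.93% higher. With PAMH, 6 were at least 1.5-fold lower than in unstimulated cells, where 4.17% of all genes were. The 8 smooth muscle markers summed to 15905, 19021 and 8335. This list includes Des and Acta2 and is not particular to smooth muscle, so its sum may hold myocyte signal. Against unstimulated cells, 5 of them were at least 1.5-fold higher and 1 lower with PAMH, and 6 were higher with phenylephrine. Of all genes, 9.31% were as high with PAMH and 8.9% with phenylephrine. Endothelial markers summed to 285, 506 and 442, with 4 of 7 below the floor on all arrays, among them Pecam1 and Vwf. Macrophage and granulocyte markers summed to 581, 499 and 521, with 9 of 12 below the floor on all arrays, among them Ptprc and Cd68, and lymphocyte markers to 300.1, 275 and 231, with 4 of 6 below. Only the macrophage and granulocyte sum had its lowest value on the phenylephrine array. The myocyte, macrophage and granulocyte, and lymphocyte sums were higher with PAMH than with phenylephrine, as the 5 genes were. Those of fibroblast, smooth muscle and endothelial markers were lower. Some sums include genes below the floor, and nothing about the 5 genes is read from them. In bulk RNA, fewer cells of a type and less RNA per cell cannot be told apart, and the part of cell makeup in the values of the 5 genes was not tested.

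Among the 5 genes, the call of side changed with the processing for Zfp638. Of the 9 alternatives, 4 (no floor, the higher floor, and the mean or the dimmest of the probe sets) gave the same value for the 5 or none. A change of floor only keeps or drops a ratio, and each gene has 1 measured probe set. Under the other 5, Sorl1 and Scrn3 stayed at least 1.5-fold lower with phenylephrine and within 1.5-fold of unstimulated with PAMH. Crip1 stayed at least 1.5-fold higher with PAMH, and Slc4a1ap lower with both. At a 2-fold line, which was added after the values were seen, Sorl1 and Slc4a1ap remained lower with phenylephrine and no gene was higher with PAMH. The technical spread between probe sets of the same gene, which holds no variation between cultures, had an SD of 0.23 on the log2 scale for PAMH over phenylephrine, 0.29 for PAMH over unstimulated and 0.27 for phenylephrine over unstimulated, over 866, 867 and 864 genes.

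**Figure D5:**
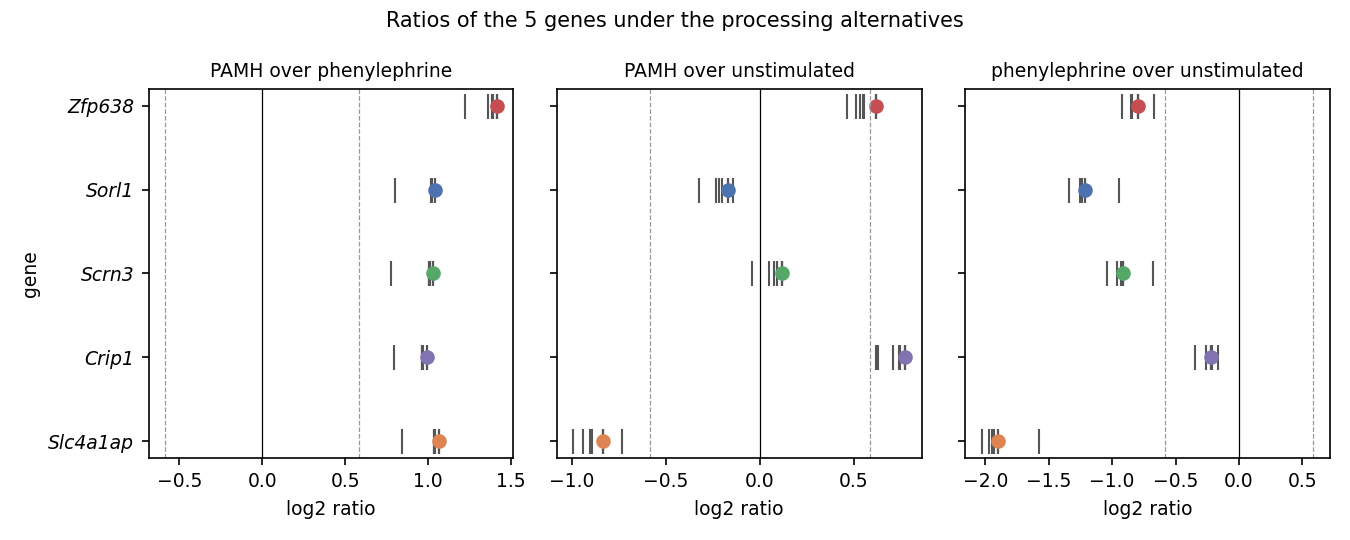
Log2 ratio of each of the 5 genes for PAMH over phenylephrine, PAMH over unstimulated and phenylephrine over unstimulated, with the reported value as a coloured dot, each processing alternative as a grey tick, 0 as a solid line and 1.5-fold as dashed lines. In the middle panel Zfp638 has ticks on both sides of the 1.5-fold line and Scrn3 on both sides of 0.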

How the data were processed

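The deposited table holds 1 signal intensity per probe set and array on a linear scale, for 15923 probe sets and 3 arrays. The labels do not say how the authors made these intensities. The mean after trimming 2% of probe sets at each end was 250.1 on every array. The 57 control probe sets were left out. The platform annotation gave 1 symbol to 12783 of the others, several to 312 and none to 2771. Symbols were updated through the gene identifier, found for 12748 in the GRCr8 gene table. Those without exactly 1 symbol were not used.

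Each array was scaled to a common median. A ratio needed both signals at or above the floor, and the brightest probe set stood for a gene. Lines of 2-fold and 1.5-fold were used. With 1 array per condition no test was run. Named genes were the members, their nearest patterns, their relatives, the genes next to 2-fold and genes stated as named after their values were seen. Members and lists were chosen with earlier results of these data known. The ratio script was checked on simulated arrays. Python 3.11.15, numpy 2.4.6, pandas 2.3.3, matplotlib 3.10.9, R 4.3.3 and limma 3.58.1 were used, limma for quantile and cyclic loess normalization, with signals under 1 set to 1.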

Additional observations from a re-analysis of the deposited data

How the results depend on the processing

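A change of floor only keeps or drops a ratio, and each gene has 1 measured probe set. For that reason 49 of 124 values of the 5 genes under the alternatives equal the reported value and say nothing about stability. They came with no floor, the higher floor, and the mean or the dimmest of the probe sets. Of the other 75, 72 moved by less than the SD between probe sets of the same gene. The other 3 came with an offset of 50: log2 ratios of PAMH to phenylephrine of 0.80 for Sorl1 and 0.77 for Scrn3, and of phenylephrine to unstimulated of -1.57 for Slc4a1ap. An offset shrinks ratios of dim signals by construction. The floor at percentile 60 (a signal of 160) left every gene except Zfp638 without a value on the phenylephrine array, and the dimmest Sorl1 probe set gave none. Of the 5 genes, the 2 that PAMH raised became 1, without Zfp638, on deposited intensities, with percentile 75, after quantile normalization, after cyclic loess and with the offset. Lines of 1.3-fold and 2-fold in place of 1.5-fold were chosen after seeing the data. At 1.3-fold the counts were as at 1.5-fold, and at 2-fold PAMH raised 0 and lowered 0 of the 5, with no test behind any line, while phenylephrine lowered 2. The counts of genes at least 2-fold apart depended more on the settings. For PAMH over phenylephrine, 13 higher and 24 lower became 2 and 10 with the offset, 3 and 11 with the higher floor and 443 and 570 with no floor. For PAMH over unstimulated, 134 higher became 75 on deposited intensities, 86 after quantile normalization, 85 after cyclic loess and 634 with no floor, and 52 lower became 92 on deposited intensities, 30 with the offset, 602 with no floor and 26 with the higher floor. For phenylephrine over unstimulated, 172 higher became 675 with no floor, and 50 lower became 92 on deposited intensities, 23 with the offset, 477 with no floor and 21 with the higher floor. No paired analysis was possible because each condition had 1 array. Replicates could not be left out for the same reason. No detection or saturation calls were used.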

Other observations

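The genes next to the 5 members on the rat chromosomes were looked up by gene order on GRCr8 after the values of the members had been seen. Of 10 protein-coding neighbours, 7 were on the array and 6 were measured on the PAMH and phenylephrine arrays, and 0 of these were at least 1.5-fold higher with PAMH than with phenylephrine, where 1.93% of all genes were, so the count is at the background and nothing is read from it.

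Gpr155, which lies beside Scrn3 and encodes a lysosomal cholesterol sensor in human cells, had a signal of 230.0 with PAMH, 336 with phenylephrine and 86.7 in unstimulated cells. It was 2.65-fold above unstimulated with PAMH and 3.87-fold with phenylephrine, and 18 of 6571 genes had a higher ratio with phenylephrine, while Scrn3 itself was 1.89-fold below unstimulated with phenylephrine. The unstimulated signal of Gpr155 was near the floor of 76.0. Cir1, on the other side of Scrn3, had 242, 238 and 291 in the same order of arrays. Sc5d, an enzyme gene of cholesterol synthesis beside Sorl1, had 433, 562 and 390.1, the opposite order to Sorl1 for the 2 compounds. Mrpl33, beside Slc4a1ap, had 1370.0, 1241 and 1139, and Paip2b, beside Zfp638, had 282, 241 and 299.7.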
